A study of Mus musculus with 4 samples.

Results

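The genes described here are 10 genes of the actin cytoskeleton and cell adhesion (Actb, Actg1, Coro1a, Lcp1, Pxn, Vim, Cfl1, Pfn1, Marcks and Marcksl1), taken by name out of 21887 protein-coding genes placed on mm10 by RefSeq. Chromatin bound by MED1, part of the Mediator coactivator, which joins transcription factors to RNA polymerase II, had been profiled by ChIP-seq in RAW 264.7, a virus-transformed mouse line with macrophage features. The groups of the study were cells given bacterial lipopolysaccharide (LPS) for 2 h (2 libraries) and untreated cells (2 libraries). All libraries came from the same line, fixed with DSG and formaldehyde and precipitated with the same MED1 antibody. The LPS dose is 10 ng/mL in the sample labels and 100 ng/mL in the treatment protocol. The measurements are positions only, from a single list of MED1 intervals for the whole series. Its lines carry neither a library nor a height, so LPS-stimulated and untreated cells could not be compared at any gene, and read depth is unknown. Abutting intervals were joined into regions. A region was counted for a gene when it overlapped the gene or had its midpoint no more than 50 kb from either gene end. By this rule 67 of 22570 regions belonged to the 10 genes, and no region was shared between these genes.

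Actin is the monomer that assembles into filaments, and macrophages depend on rapid filament turnover to crawl, spread, engulf particles and adhere. Profilin loads monomers for assembly, cofilin severs old filaments, coronin and plastin organise filaments in leukocytes, and paxillin anchors them at adhesions beneath integrins. Vimentin forms intermediate filaments, and MARCKS and its relative Marcksl1 bind actin and the phospholipids of the cell membrane under the control of protein kinase C. Serum response factor, which binds the CArG box, is a well-known activator of actin genes.

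Of the 10 genes, 9 were overlapped by a MED1 region, against 50.6% of all protein-coding genes. The same 9 had a region at the gene or within 50 kb, against 70.6% of all genes, and each of them had at least 4, against 34.8% of all genes. Marcks was the exception, with no region in its window. The number of regions at or within 50 kb was 14 for Pxn, 8 each for Cfl1, Pfn1 and Marcksl1, 7 for Actb, 6 each for Coro1a, Lcp1 and Vim, 4 for Actg1 and 0 for Marcks. The median was 6.5 for the 10 genes and 2 for all protein-coding genes (quartiles 0 and 5). There is no test behind these counts, since the genes were chosen with earlier results of the same list known and the list holds no replicate values. Counts within 50 kb also take in regions at neighbouring genes.

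**Figure D1:**
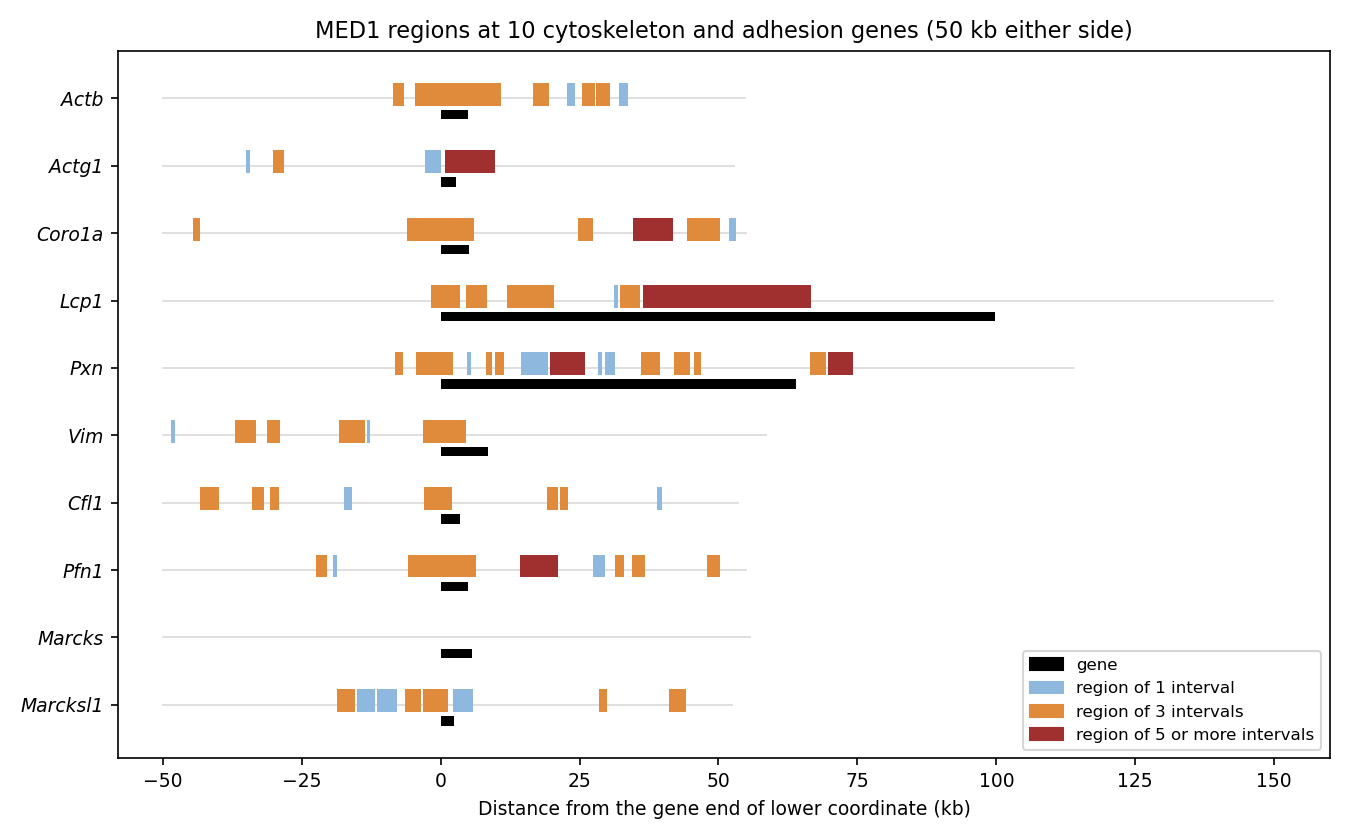
Map of MED1 regions at the 10 genes. The x axis is the distance in kb from the gene end of lower coordinate, black bars are genes, coloured boxes are regions by their number of joined intervals, and grey lines span the gene and 50 kb on either side; a broad region covers Actb, Coro1a and Pfn1 from end to end, Pxn carries 11 regions along its body, and Marcks has none.

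The actin genes lay under broad regions. Actb encodes the beta actin of all non-muscle cells (chromosome 5, 142903115 to 142907976, 4.86 kb). The whole gene lay inside a region of 15.5 kb (142898425 to 142913970), which ran 4690 bp past its lower and 5994 bp past its higher end. It ranked 150 in width among the 22570 regions and also overlapped the non-coding gene Gm38733. A further 5 regions of 1452 to 2962 bp followed on the higher-coordinate side, with midpoints 13.2 to 28.1 kb from the gene. None of these 5 touched a gene in the annotation used. Fbxl18 was the only other protein-coding gene in the window, and 1 region of 1997 bp lay over it. Fscn1, another gene of the actin cytoskeleton, began just beyond the window at 142960355. The same 5 regions had midpoints within 50 kb of Fscn1 as well.

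Actg1 encodes gamma actin, the other non-muscle actin (chromosome 11, 120345687 to 120348495, minus strand, 2.81 kb). A region of 9.08 kb (120346436 to 120355511) covered its start and reached 7.02 kb upstream, against 2.06 kb downstream into the gene. This region also overlapped the microRNA gene Mir6935 and the non-coding gene 0610009L18Rik. A second region of 2.98 kb (120342857 to 120345839) began past the opposite end and covered 5.4% of the gene. Together they left a gap inside the gene, and 78.8% of Actg1 was covered. The 2 other regions of its window lay 29.2 and 34.6 kb away.

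The promoter of Actg1 is shown because the region over it was centred upstream of the start and because it is the only promoter, of the 7 genes with a RefSeq promoter window, that has a match to the CArG box of serum response factor. The window runs from 250 bases before to 50 bases after the start, as RefSeq gives it on GRCm38.p6 (chr11:120348446-120348745, minus strand, written 5′ to 3′). Capitals mark the CArG box (CCATATATGG, 90 to 81 bases before the start) and the letters GGGCGG or their complement, a GC box of Sp1-type factors.
Actg1: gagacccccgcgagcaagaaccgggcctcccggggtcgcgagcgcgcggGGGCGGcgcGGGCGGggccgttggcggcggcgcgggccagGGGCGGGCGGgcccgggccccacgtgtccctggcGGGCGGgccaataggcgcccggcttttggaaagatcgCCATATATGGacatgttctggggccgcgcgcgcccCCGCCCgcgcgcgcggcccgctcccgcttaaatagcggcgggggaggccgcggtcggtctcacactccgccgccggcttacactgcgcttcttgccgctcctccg

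Less of each muscle actin gene was covered in the same list. Acta1, the skeletal muscle actin, and Actc1, the cardiac actin, had no region within 50 kb, with the nearest midpoints 54.7 and 122.3 kb away. Actg2, of visceral smooth muscle, was overlapped by none, with the closest midpoint at 6.2 kb. Acta2, of vascular smooth muscle, was overlapped by 1 region of 1.33 kb, over 8.72% of its length. The regions at the gene or within 50 kb numbered 7 at Actb and 4 at Actg1, against 5 each at Acta2 and Actg2. The share of the gene covered was thus 100% at Actb and 78.8% at Actg1, against 8.72% at Acta2 and 0 at the other muscle actin genes.

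The genes of filament turnover were each overlapped by 1 region that also covered neighbours. Pfn1 encodes profilin 1 (chromosome 11, 70651844 to 70656799, minus strand, 4.96 kb) and lay wholly inside a region of 12.1 kb (70645991 to 70658132). Its RefSeq start at 70654650 was covered with 3.48 kb of upstream sequence. That region also overlapped Slc25a11, Rnf167 and Eno3, so its breadth cannot be given to Pfn1 alone. The window of Pfn1 held 11 other protein-coding genes, and 5 of the 7 flanking regions lay over such a gene. Next to it, a region of 6.92 kb in 5 intervals lay over Spag7 and Camta2, 12.7 kb away.

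Cfl1 encodes cofilin 1 (chromosome 19, 5490455 to 5494031, plus strand, 3.58 kb). Its single overlapping region of 5.13 kb (5487394 to 5492522) covered the start, reached 3.06 kb upstream and 2.07 kb downstream, and took in 57.8% of the gene. The region also overlapped Mus81, which encodes a DNA repair endonuclease. The other 7 regions were narrower, between 794 and 3395 bp, and 5 of them lay over other protein-coding genes, among them Fosl1, an AP-1 subunit gene.

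The relatives of both genes carried less. Cfl2, the muscle cofilin, had a region of 2.01 kb over 31.0% of its length, and Dstn, encoding destrin, had 2.64 kb over 4.92%. The profilin genes Pfn2, Pfn3 and Pfn4 were overlapped by none, with nearest midpoints at 105.8, 9.4 and 38.6 kb. Regions at the gene or within 50 kb numbered 0 at Pfn2, 6 at Pfn3 and 1 at Pfn4, against 8 at Pfn1. They numbered 4 each at Cfl2 and Dstn, against 8 at Cfl1.

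The filament-organising genes of leukocytes differed in layout. Coro1a, encoding the coronin of haematopoietic cells (chromosome 7, 126699774 to 126704816, minus strand, 5.04 kb), lay wholly inside a region of 12.1 kb (126693746 to 126705824). The region reached 1.01 kb upstream of the start and ran 6028 bp past the opposite gene end, over Slx1b and Bola2. Regions of 2614, 7073 and 5979 bp followed 21.1, 33.2 and 42.2 kb upstream, over no gene of the annotation used. Regions covered 29.6% of the whole Coro1a window, the highest share among the 10 genes, and 1.78% of all protein-coding genes reached that share.

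The promoter of Coro1a is shown beside that of Actg1 because its region lay almost entirely downstream of the start. It is the first of 2 start sites that RefSeq gives (GRCm38.p6, chr7:126704767-126705066, minus strand), and capitals again mark GGGCGG or its complement.
Coro1a: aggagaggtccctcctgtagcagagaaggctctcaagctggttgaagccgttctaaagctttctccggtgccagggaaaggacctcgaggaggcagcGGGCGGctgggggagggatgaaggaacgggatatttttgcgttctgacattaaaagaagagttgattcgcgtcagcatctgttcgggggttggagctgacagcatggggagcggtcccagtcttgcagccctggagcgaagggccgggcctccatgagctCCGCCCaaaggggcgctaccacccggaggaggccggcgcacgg

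Of the other coronin genes, Coro1b, Coro1c, Coro2a, Coro6 and Coro7 were overlapped by regions of 3.54, 5.02, 4.03, 1.33 and 2.14 kb at their widest, and Coro2b by none. The share of the gene covered was 100% for Coro1a and 24.2% or less for these 6 genes. A share depends on gene length, which was 5043 bp for Coro1a, 5425 bp for Coro1b, 66268 bp for Coro1c and 64993 bp for Coro2a. By number of regions at the gene or within 50 kb, Coro1a did not stand out. It had 6, against 9 at Coro1b, 8 at Coro1c, 9 at Coro2a, 6 each at Coro6 and Coro7 and 1 at Coro2b.

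Lcp1 encodes L-plastin, the actin-bundling protein of leukocytes (chromosome 14, 75131105 to 75230842, plus strand, 99.7 kb). All 6 of its regions overlapped the gene. The first 2, of 5.3 and 3.76 kb, covered its RefSeq starts at 75131123 and 75136425, and the first of them also overlapped the neighbour Lrrc63. Regions of 8.57, 0.68 and 3.69 kb followed inside the gene, and then a region of 30.3 kb (75167470 to 75197792), which ranked 17 in width among the 22570 regions. The regions together covered 50.7% of the gene. They ended at 75197792, and the part of the gene from there to its end, at 75230842, held none. Of the related plastin genes, Pls3 had a widest region of 4.49 kb and Pls1 was overlapped by none.

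Pxn, encoding the adhesion scaffold paxillin (chromosome 5, 115491970 to 115555987, 64.0 kb), had the most regions of the 10 genes, 11 over the gene and 3 beside it. Only 0.196% of protein-coding genes were overlapped by as many. That share is over genes of all lengths, with a median of 17.17 kb, and a gene of 64.0 kb has more room for regions. Unlike those of Lcp1, the regions of Pxn were of ordinary width, with a median of 1856 bp over the gene, against 2034 bp for all regions that overlap a protein-coding gene. The widest measured 6.74 kb (115487543 to 115494284), lay over the lower end of Pxn and also overlapped Sirt4. The next ones, of 6.19 and 4.92 kb, lay inside the gene between 115506369 and 115517869. All 11 lay within the interval from 115487543 to 115538899, and the part of the gene beyond held none. Beyond the higher end, regions of 2830 and 4418 bp lay over the ribosomal gene Rplp0 and over Rplp0 and Gcn1. Lpxn, the paxillin relative of leukocytes, had 3 regions over 42.1% of the gene, close to the 42.9% of Pxn. Tgfb1i1, encoding the relative Hic-5, was overlapped by none, with the nearest midpoint 8.9 kb away.

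Vim encodes vimentin, the intermediate filament protein of macrophages and mesenchymal cells (chromosome 2, 13574311 to 13582826, plus strand, 8.52 kb). A region of 7.73 kb (13571188 to 13578921) covered its start, 3.12 kb of upstream sequence and 4.61 kb of the gene, or 54.1% of its length. This region also overlapped the non-coding gene Gm9875. The other 5 regions, of 633 to 4711 bp, all lay upstream, with midpoints 13.0 to 48.2 kb from the gene. None lay downstream of Vim within 50 kb. Of the upstream regions, 3 lay over Trdmt1 and 2 over Gm9875, which is not a protein-coding gene.

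The promoter of Vim is shown because it alone, of the 7 genes with a window, held the letters TATAAA of a TATA box and matches to the NF-kB consensus, the motif of a main transcription factor family downstream of LPS (GRCm38.p6, chr2:13574061-13574360, plus strand). Other forms of the TATA box were not searched. Capitals mark the TATAAA letters, 32 to 27 bases before the start, and the consensus matches, which begin 223, 142 and 141 bases before it; the last pair overlap.
Vim: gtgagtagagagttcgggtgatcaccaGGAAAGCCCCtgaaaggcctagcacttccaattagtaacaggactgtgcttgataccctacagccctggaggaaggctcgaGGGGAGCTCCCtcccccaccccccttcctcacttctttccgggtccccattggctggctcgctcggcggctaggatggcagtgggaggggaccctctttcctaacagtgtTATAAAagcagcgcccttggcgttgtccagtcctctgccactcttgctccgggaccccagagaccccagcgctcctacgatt

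Other type III intermediate filament genes lacked a region as wide over the gene as that of Vim. Des, of muscle, and Prph, of peripheral neurons, were overlapped by none, and Gfap, of astrocytes, by 1 of 1.01 kb. By number of regions at the gene or within 50 kb, Vim did not stand out. It had 6, against 8 at Prph, 3 at Gfap and 2 at Des.

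The MARCKS genes were opposite cases. Marcksl1 (chromosome 4, 129513581 to 129515981, plus strand, 2.4 kb) had 8 regions. A region of 4.41 kb covered its start and 3.1 kb upstream, and another, of 3.56 kb, lay over its end and ran on over Hdac1, a histone deacetylase gene. Upstream, 4 regions of 2733 to 3489 bp lay in a row with midpoints 4.97 to 17.0 kb from the gene, over no gene of the annotation used. The remaining 2 lay over Hdac1 and over Lck, 26.8 and 40.3 kb away.

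Marcks itself (chromosome 10, 37133243 to 37138926, 5.68 kb) had no region. The nearest on the lower side was 1682 bp wide (36973731 to 36975412) with its midpoint 158.7 kb away, and the nearest on the higher side was 2946 bp wide with its midpoint 181.6 kb away. Of all protein-coding genes, 18.6% lay at least as far from a midpoint. No other protein-coding gene of the annotation used lay in the Marcks window, whereas that of Marcksl1 held 5. Gap43 and Basp1, genes of neuronal membrane proteins with related functions, were overlapped by none either, although Basp1 had a midpoint 0.83 kb from its end.

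Most of these genes were overlapped by at least 1 wide region, although most regions of Pxn were of ordinary width. Of the 10 genes, 8 were overlapped by a region of 5 kb or more, against 7.54% of all protein-coding genes, and among the 8 genes of 2 to 10 kb, 6 were, against 7.56% of all genes of that length. The thresholds of 5 kb and of 4 regions were set after the values were seen. Cfl1, at 5.13 kb, lay just above the width threshold and Marcksl1, at 4.41 kb, just below. Within the same length range, 7 of the 8 were overlapped at all, against 44.8% of genes. The median of the widest overlapping region was 9076 bp over the 9 genes and 2359 bp over the 11070 protein-coding genes that were overlapped (quartiles 1635 and 3646 bp).

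**Figure D2:**
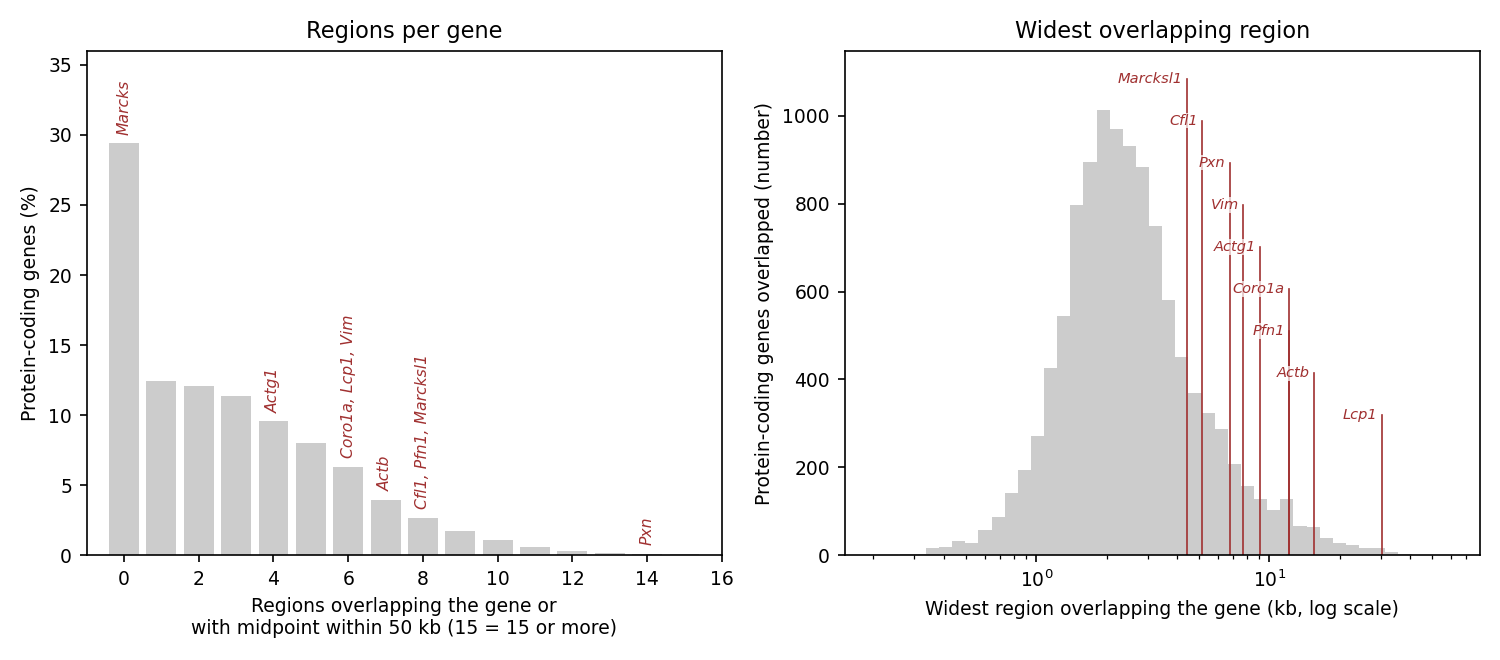
The 10 genes among all protein-coding genes. Left, the number of regions at a gene or within 50 kb (x axis) against the percentage of 21887 protein-coding genes (bars), with the 10 genes named over their number; right, the widest region overlapping a gene in kb on a log axis against the number of genes, with a red line for each of the 9 overlapped genes, all of them above the median of 2359 bp.

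The regions over the genes were wider than those beside them. The 26 regions that overlapped the 9 genes had a median width of 4085.5 bp (quartiles 2137.5 and 7486 bp), and the 41 that only lay nearby had 2249 bp (quartiles 1437 and 2978 bp), against 1948 bp for all regions and 2034 bp for those that overlap any protein-coding gene. Of the 26, 11 (42.3%) measured 5 kb or more, against 3 of 41 (7.32%) nearby, 9.66% of all regions and 10.3% of those that overlap a protein-coding gene. The counting rule itself leans towards such a difference, since a wide region is likelier to touch a gene than a narrow one. The gene ends lay inside regions as well. Both ends were covered in 5 genes, Actb, Actg1, Coro1a, Pfn1 and Marcksl1, against 4.09% of all protein-coding genes. That share is not matched for length, since these 5 measured 5043 bp or less and the median over all genes was 17.17 kb. In Actg1 and Marcksl1 a second region reached the other end, sharing 153 and 120 bp with the gene. Actb, Coro1a and Pfn1 lay inside a region from end to end, as did 1.55% of all genes and 3.18% of those of 2 to 10 kb.

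As in the whole list, most of the regions were built from 3 abutting intervals, with a long one in the middle. Of the 67 regions, 42 (62.7%) had 3 intervals, 19 (28.4%) had 1 and 6 (8.96%) had 5 or more, against 60.4, 35.3 and 3.82% of all regions. In 39 of the 42, the middle interval was the widest (92.9%, against 92.4% of all regions of 3 intervals). At Actb the widths were 2126, 12822 and 598 bp in order of position, at Coro1a 735, 10944 and 400 bp, and at Pfn1 427, 10899 and 816 bp. Marcksl1 was an exception, with 2577, 661 and 1174 bp. What distinguishes abutting intervals is not stated with the list and was not tested.

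**Figure D3:**
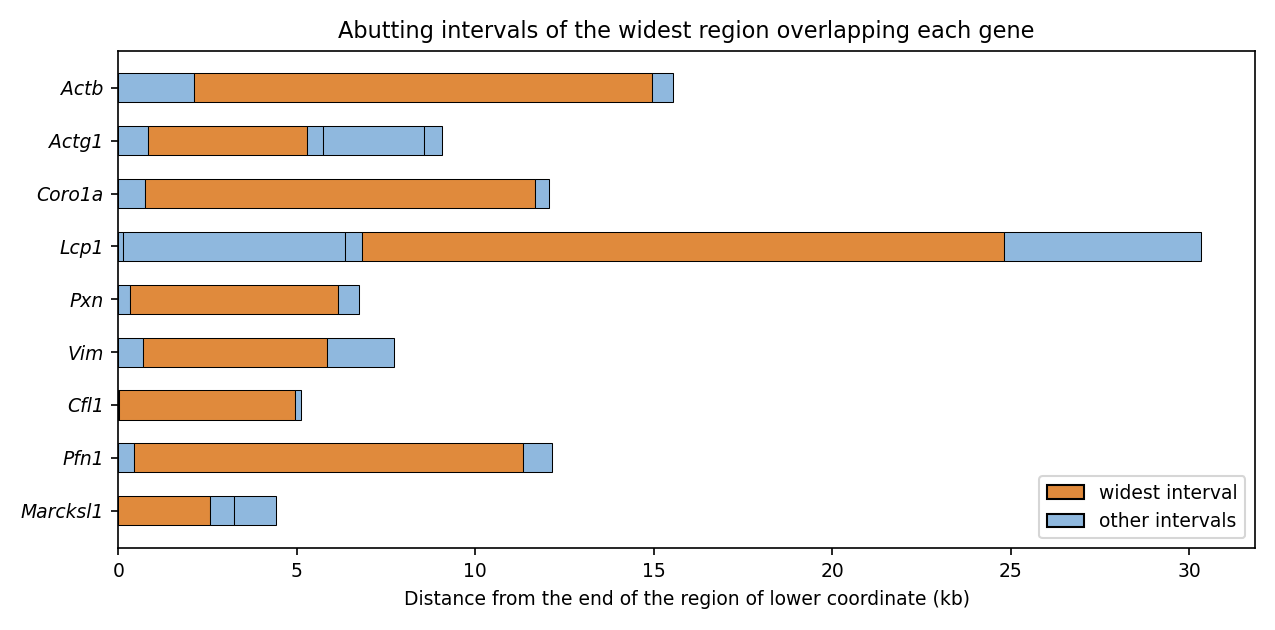
The deposited intervals that make up the widest region over each of the 9 overlapped genes, drawn to scale in kb from the region's end of lower coordinate. The widest interval is orange and the others blue; 1 long interval fills most of the regions of Actb, Coro1a, Pxn, Cfl1 and Pfn1, whereas in Marcksl1 the middle interval is the shortest.

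Regions with gaps of up to 12.5 kb were also gathered into clusters, ranked by the length they cover. By this ranking Lcp1 lay in the largest cluster of these genes, with 6 regions covering 52.3 kb (rank 32 of 13554). Pxn followed with 12 regions covering 33.3 kb (rank 107), Actb with 7 regions and 28.4 kb (rank 155) and Pfn1 with 6 regions and 27.5 kb (rank 168). Marcksl1 (rank 329) and Vim (rank 358) came next with 20.6 and 19.9 kb, then Coro1a (rank 907) and Actg1 (rank 910) with 12.1 kb each. Cfl1 lay in a cluster of 1 region of 5.1 kb, at rank 3118. Of these 9 clusters, only that of Actg1 held a single protein-coding gene. The cluster of Pfn1 held 8, that of Coro1a 3 and the others 2 each, so a rank belongs to the locus and not to the gene.

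Start sites were covered in every gene for which one could be looked up, which leaves out Marcks. With no region within 50 kb, Marcks cannot have a covered start. RefSeq promoter windows were found for 7 of the 10 genes, all but Actb, Pxn and Marcks, and a region lay over a start of all 7, against 42.8% of 17492 genes with a window. Seen from the start, the region reached farther upstream in Actg1 (7.02 against 2.06 kb), Marcksl1 (3.1 against 1.31 kb) and Cfl1 (3.06 against 2.07 kb). It reached farther downstream in Coro1a (11.1 against 1.01 kb), Pfn1 (8.66 against 3.48 kb), Vim (4.61 against 3.12 kb) and Lcp1 (3.56 against 1.74 kb at its first start).

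The 9 promoter windows of these 7 genes had few motifs in common. GGGCGG, read on both strands, was in 7 windows of 6 genes, all but Vim, against 46.2% of 21263 promoter windows and 64.9% of those whose start lay in a region. The CArG box (CC, 6 letters of A or T, then GG) was in that of Actg1 alone, against 1.52% of all windows. TATAAA and the NF-kB consensus were in that of Vim alone, against 12.6 and 9.25% of all windows. The letters TGANTCA of AP-1, TGACGTCA of the cyclic AMP response element and GAGGAAGT of PU.1 and related ETS factors were in none of the 9 windows, against 6.99, 2.23 and 3.13% of all. A match is a string of letters in a window of 300 bases and does not show that a factor binds there. The GC content was highest in Actg1 (77.3%, with 50 CpG dinucleotides) and lowest at the second start of Lcp1 (44.3%, with 4), against a median of 56.3% and 13 over all windows.

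Genes of the wider cytoskeleton were overlapped more often than the background of 50.6%. Of 137 listed genes in 7 lists, which include the 10, 106 (77.4%) were overlapped by a region and 42 (30.7%) by a region of 5 kb or more. Without the 10 genes the counts were 97 of 127 (76.4%) and 34 of 127 (26.8%), with a median of 5 regions per gene. The lists were not matched to the background for gene length, and a longer gene has more room to be overlapped. They include long genes, whereas the median length over all protein-coding genes was 17.17 kb. What length adds to these shares was not tested. Genes of branched and linear nucleation, such as those of the Arp2/3 complex and the formins, were overlapped in 26 of 29 cases, with the widest region, 11.2 kb, at the leukocyte formin gene Fmnl1. Cttn, Fmnl2 and Nckap1 were not overlapped. Bundling, crosslinking, capping and severing genes were in 26 of 29 cases, all but Pls1, Tpm2 and Enah. Focal adhesion genes were in 24 of 28, with the widest region, 31.3 kb, at Lpp, a zyxin relative gene of 599229 bp with 24 regions over it. The exceptions were Tgfb1i1, Fermt2, Parva and Bcar1.

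Coronin genes were overlapped in 6 of 7 cases, against 50.6% of all protein-coding genes. Actin and monomer-binding genes were overlapped in 17 of 24 cases and intermediate filament genes in 6 of 16. The 6 were Vim, Gfap, the lamin genes Lmna, Lmnb1 and Lmnb2, and Plec, encoding the linker plectin, with the widest region of 17.1 kb. The neurofilament genes Nefl, Nefm and Nefh and the keratin genes Krt8 and Krt18 were among the 10 that no region overlapped, although Nefh, Krt8 and Krt18 each had 2 regions within 50 kb. Among the MARCKS and related genes, only Marcksl1 was overlapped.

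The labelled cell type was checked against marker genes. All 8 macrophage marker genes were overlapped by a region, against 50.6% of all protein-coding genes. The widest region over each ran from 1.15 kb at Mrc1, 2.41 kb at Adgre1 and 2.84 kb at Itgam to 11.2 kb at Cd14, 14.8 kb at Spi1 and 19.0 kb at Csf1r. None of the 6 fibroblast, 6 epithelial and 6 muscle marker genes was overlapped, against the same 50.6%. This holds for overlap only. No region lay within 50 kb of 4 fibroblast, 4 epithelial and 1 muscle marker gene, and the others had some, with 6 at Tagln and 3 at Myh11. Of all protein-coding genes, 70.6% had a region at the gene or within 50 kb. The midpoint rule at 50 kb was met most narrowly by a region 48.2 kb from Vim, and missed by regions 50.2 and 50.4 kb from Coro1a, 51.8 kb from Marcksl1 and 53.6 kb from Lcp1.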

How the data were processed

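MED1 ChIP-seq libraries from RAW 264.7 cells, LPS-stimulated (2 libraries) and untreated (2 libraries), were deposited as 1 list of 53764 intervals for the whole series. Bowtie, SAMtools, MACS2 2.2.6 and mm10 are named in the submitters' processing notes; peak-calling settings, a control and any pooling are not given in the sources used. In the authors' deposited score column each line holds 0, so positions are the only values, and depth and precision per library are unknown. The 4 mitochondrial intervals were left out and abutting intervals joined (Python 3.11.15, numpy 2.4.6, pandas 2.3.3, matplotlib 3.10.9). Gene positions, starts and promoter sequences came from RefSeq, GRCm38.p6, the assembly mm10 names. Coordinates are 1-based. Overlap meant at least 1 shared base. No genome sequence was used, so motifs were read only in promoter windows. Joining and counting were tested on simulated data.

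The members and gene lists were chosen with earlier results of these data known. One of the planned gene lists is not reported here. Named genes were the 10 members, their paralogues, the gene with the widest overlapping region in each list and neighbours under a member's region. Other genes, including exceptions in the lists, were chosen after their values were seen. Counts of overlapped genes were set against the share over all protein-coding genes in place of a test. Alternatives were unjoined intervals, merging within 500 bp, wider regions only, regions of 1 interval left out, other windows and other overlap rules.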

Additional observations from a re-analysis of the deposited data

How the results depend on the processing

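Under unjoined intervals, merging within 500 bp, regions at or above the median width, and regions of 1 interval left out, 9 of the 10 genes were overlapped, against 50.6, 50.6, 32.0 and 43.1% of all protein-coding genes. A start was covered in all 7 genes with a promoter window, which do not include Marcks, against 42.8, 43.3, 26.9 and 37.7% of genes with a window. The count was also 9 with genes extended by 1 kb (52.0% of all genes) and with at least 200 bp of overlap (50.0%). With 1 kb around the start, 7 starts were covered (46.3%). Unjoined intervals cover the same bases as the regions, so counts of overlapped genes and starts could not differ there. Merging, extension and the wider start could only add overlap. The width and interval settings could remove overlap, but the widest region over each of the 9 genes meets both, so that 9 was fixed. Of the 137 listed cytoskeleton genes, 106, 106, 87 and 97 were overlapped under the first 4 settings and 105 with at least 200 bp of overlap, beside the same shares of all genes. The median number of regions per gene, 6.5, became 18 for unjoined intervals, 5.5 with merging, 4.5 for wider regions, 5 without regions of 1 interval, 1.5 and 13 for windows of 10 and 100 kb, and 7.5 by any overlap with the window, against 5, 2, 1, 1, 1, 4 and 2 over all protein-coding genes. The median of the widest overlapping region, 9076 bp, became 5815 bp for unjoined intervals and 11501 bp with merging, against 1850 and 2420 bp over all overlapped genes. Marcks had 0 regions under each of these settings, but none of them could reach the nearest midpoint, 158.7 kb away. No paired analysis was possible because the list assigns no interval to a library or condition; leaving out replicates could not be done for the same reason. Without depth, background calls could not be told apart from occupancy, and a missing region does not show that MED1 was absent.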
